A study of Mus musculus with 4 samples.

Results

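The 9 genes described here make, move, break down and sense the catecholamines dopamine and noradrenaline. They are the synthesis enzymes Th, Ddc and Dbh, the transporters Slc6a2, Slc6a3 and Slc18a2, the monoamine oxidases Maoa and Maob, and the dopamine D2 receptor Drd2. All 9 were found by symbol among the 24015 genes of the deposited count table. The set was chosen from genes whose levels in heterozygotes and wild types were already known. The genotype values below are therefore a description with no test, and support nothing by themselves.

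Cerebella were dissected from C57BL/6N mice aged 140 to 150 days. The mice were heterozygous for an Arid1b knockout (HT) or were wild type (WT) littermates. Arid1b encodes a subunit of the BAF chromatin remodelling complex, and the study asked how loss of 1 copy alters gene expression. There were 2 libraries per genotype, 1 male and 1 female, and the labels do not say how the knockout allele was made. They describe no treatment. The libraries held 15950899 to 20616219 counts each, and p-values measure only the spread between these 4 libraries. Granule and Purkinje cell markers, which define the labelled tissue, were detected in every library, with Cbln3 between 1028 and 1567 CPM (the count per 1000000 counts of the library) and Calb1 between 545 and 747 CPM. Arid1b stood at 52.9 and 55.8 CPM in the male and female HT and at 69.9 and 71.0 CPM in the male and female WT. The female WT library was low in many markers of brainstem and midbrain neurons, such as Slc6a3 and Tph2. It was highest of the 4 in others, such as Hoxa5 and Hoxb5. The male HT library was high in markers of skeletal muscle, which summed to 115 CPM there and to 5.23 to 8.83 CPM in the other libraries, and of the choroid plexus, which summed to 2691 CPM against 1463 to 1553 CPM. Of 9 choroid plexus markers 8 were higher in HT, with a median of 0.50 (log2), and their part in the values below was not tested. The genotype values of the 9 genes are given with and without each of these 2 libraries.

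Tyrosine hydroxylase (Th) turns tyrosine into L-DOPA, and aromatic amino acid decarboxylase (Ddc) turns L-DOPA into dopamine and also makes serotonin. Dopamine beta-hydroxylase (Dbh) turns dopamine into noradrenaline. In the brain these enzymes mark small groups of neurons outside the cerebellum, such as the midbrain dopaminergic neurons and the noradrenergic locus coeruleus of the pons, which lies close to the cerebellum and sends axons into it. Th is also known from a subset of mouse Purkinje cells.

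The promoters of 3 genes on which the results turn are shown first, since Th, Dbh and Slc6a3 stand for the shared first step, the noradrenergic branch and the dopaminergic branch. Each is the 250 bases before the RefSeq start in GRCm38.p6, written 5′ to 3′ on the strand of the gene. Capitals mark the cAMP response element, an 8-base site bound by CREB-family factors.

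Th, chr7:142899996-142900245, minus strand: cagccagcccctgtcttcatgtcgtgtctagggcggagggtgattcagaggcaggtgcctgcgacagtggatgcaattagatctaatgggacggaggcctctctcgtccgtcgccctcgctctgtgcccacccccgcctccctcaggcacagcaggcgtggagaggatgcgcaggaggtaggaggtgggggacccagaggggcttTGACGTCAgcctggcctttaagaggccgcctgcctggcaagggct
Dbh, chr2:27165257-27165506, plus strand: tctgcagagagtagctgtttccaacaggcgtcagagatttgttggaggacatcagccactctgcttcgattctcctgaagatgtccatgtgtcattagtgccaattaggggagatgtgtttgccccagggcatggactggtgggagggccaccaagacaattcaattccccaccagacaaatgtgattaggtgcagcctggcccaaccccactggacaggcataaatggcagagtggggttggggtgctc
Slc6a3, chr13:73536497-73536746, plus strand: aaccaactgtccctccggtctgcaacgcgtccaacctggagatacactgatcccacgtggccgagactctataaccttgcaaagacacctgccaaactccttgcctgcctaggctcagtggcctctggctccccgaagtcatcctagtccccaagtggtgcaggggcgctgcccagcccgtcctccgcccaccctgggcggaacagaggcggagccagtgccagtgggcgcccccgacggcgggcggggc

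RefSeq windows were matched for 7 of the 9 genes, with 2 windows for Ddc. The element TGACGTCA, which reads the same on both strands, was present only in the Th window, 45 bases before the start. It was in 1.77% of the 27025 genes with a window of this length. AAAGGTCA, the element bound by NR4A receptors, was found on either strand in 1.55% of genes, and among the 7 only in the upstream Ddc window, where its reverse complement overlapped that of the TATA box (TATAAA). The TATA box was in 14.3% of genes and among the 7 only in that Ddc window. The GC box GGGCGG, present in 35.4% of genes on either strand, was in the windows of 5 of the 7, namely Th, Slc6a3, Slc18a2, Maoa and Drd2. The Dbh window held none of these 4 motifs.

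Among the synthesis enzymes, Th had 57.7 CPM in the male HT, 51.5 in the female HT, 30.7 in the male WT and 19.5 in the female WT. Both HT libraries were above both WT libraries, and the lower HT value was outside the 95% Poisson interval of the higher WT value (28.1 to 33.5 CPM). The means were 54.6 ± 4.42 CPM in HT and 25.1 ± 7.91 CPM in WT (SD, n = 2 each). On the log2 scale HT was higher by 1.15 ± 0.15 (SE). These intervals cover counting error only.

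Ddc stood at 54.4 CPM in the male HT, 46.5 in the female HT and 41.3 in the male WT, but at 11.2 CPM in the female WT. The genotypes did not overlap, yet the 3 higher libraries lay close together and the difference came mostly from 1 low library. The log2 fold change was 1.18 ± 0.63 (SE). Dbh was at 21.7 and 16.7 CPM in the male and female HT and at 13.6 and 4.51 CPM in the male and female WT, again with no overlap. Its log2 fold change was 1.24 ± 0.29 (SE).

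**Figure D1:**
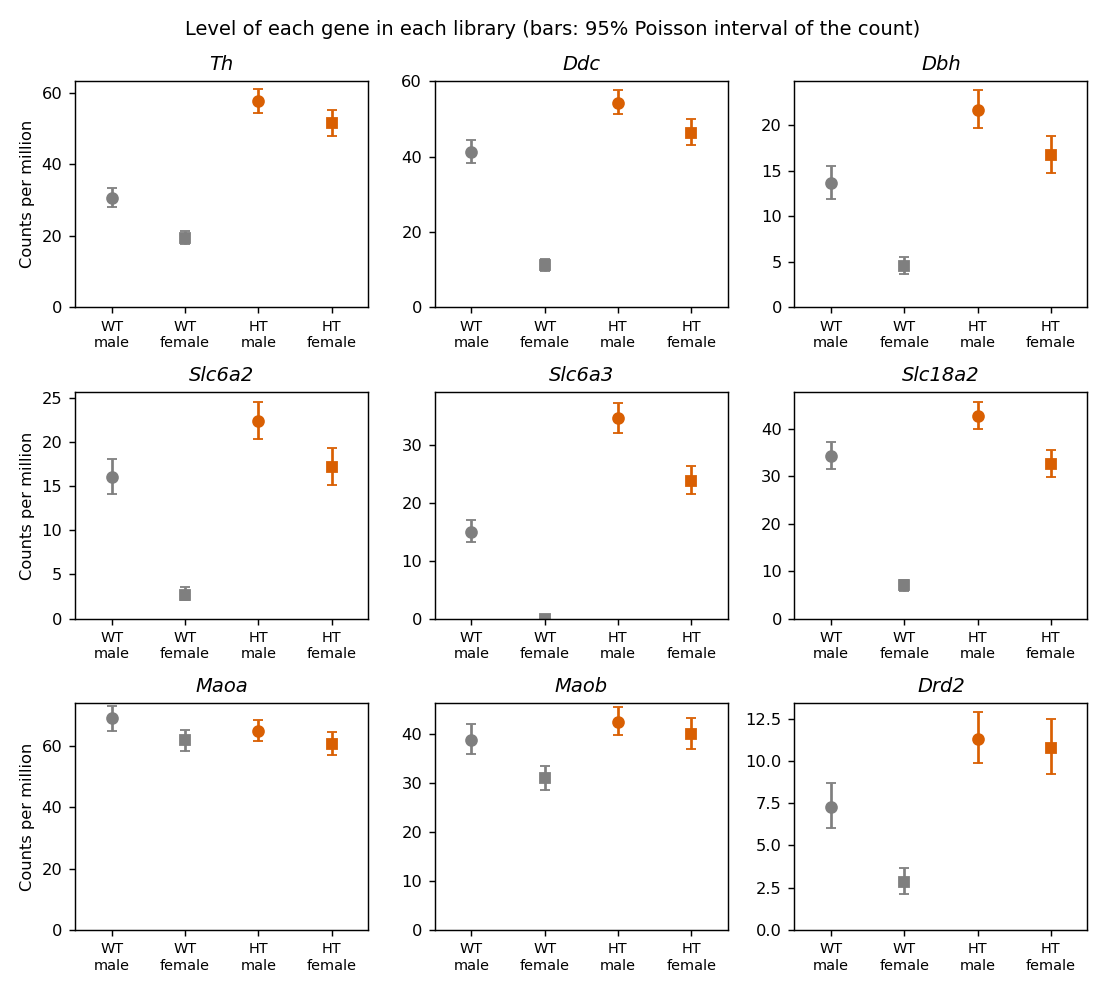
Levels in CPM (vertical axes, from 0) of the 9 genes in each of the 4 libraries. Grey points are WT, orange points HT, circles males and squares females, and bars are 95% Poisson intervals of the count. The female WT (grey square) is the lowest point for every gene except Maoa, beside 32.0% of all tested genes, and Slc6a3 had no count there.

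Of the transporters, Slc6a2 returns noradrenaline and Slc6a3 returns dopamine to the neuron that released it, and Slc18a2 loads every monoamine, serotonin and histamine included, into vesicles. Slc6a3 ranged most widely. It had 701 counts (34.6 CPM) in the male HT, 379 (23.8 CPM) in the female HT, 247 (15.01 CPM) in the male WT and 0 counts in the female WT. A count of 0 in that library of 20616219 counts allows up to 0.146 CPM, taking 3 counts as the limit. Against that limit Slc6a3 was at least 237-fold higher in the male HT, 163-fold in the female HT and 103-fold in the male WT. Its fitted log2 fold change between the genotypes was 2.76 ± 2.29 (SE), whose error is nearly as large as the value.

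Slc6a2 had 22.3 CPM in the male HT, 17.1 in the female HT, 15.98 in the male WT and 2.72 in the female WT. The female HT and the male WT were within each other's 95% Poisson intervals (15.1 to 19.3 and 14.1 to 18.0 CPM), so the groups were apart only by the female WT and the male HT. The log2 fold change was 1.43 ± 0.79 (SE). Slc18a2 had 42.8 CPM in the male HT, 34.3 in the male WT, 32.7 in the female HT and 6.98 in the female WT. Here the genotypes overlapped, and the log2 fold change was 1.19 ± 0.77 (SE).

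The monoamine oxidases break down catecholamines and serotonin at the outer mitochondrial membrane, and are made in many cell types, glia included. Both genes lie next to each other on the X chromosome. Maoa was at 65.0 and 60.7 CPM in the male and female HT and at 69.0 and 61.8 CPM in the male and female WT, a log2 fold change of -0.05 ± 0.11 (SE) with overlapping groups. Maob was at 42.4 and 39.9 CPM in the male and female HT and at 38.8 and 30.9 CPM in the male and female WT, a log2 fold change of 0.25 ± 0.13 (SE). The Maob groups did not overlap, but the female HT and male WT were within each other's Poisson intervals. From the highest to the lowest library Maoa spanned 1.14-fold and Maob 1.37-fold, where Th spanned 2.96-fold, Dbh 4.81-fold and Slc6a2 8.22-fold.

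Drd2 encodes an inhibitory dopamine receptor that dopaminergic neurons also carry as an autoreceptor. It had 11.3 CPM in the male HT, 10.8 in the female HT, 7.29 in the male WT and 2.81 in the female WT, with no overlap of the groups and a log2 fold change of 1.25 ± 0.32 (SE). Drd2 is also made in pituitary cells that secrete prolactin. The pituitary hormone genes Prl and Gh were at 19.4 and 8.02 CPM in the female HT and at most 1.65 and 1.09 CPM in the other libraries. The Drd2 levels of the male and female HT were within each other's 95% Poisson intervals (9.92 to 12.9 and 9.23 to 12.5 CPM). Of 10 pituitary markers, 4 were at 0 in at least 1 library, Fshb and Tbx19 in all of them, and their summed level was 4.19 and 31.8 CPM in HT against 5.11 and 6.94 CPM in WT. Their part in the Drd2 values was not tested.

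Both HT libraries were above both WT libraries for 7 of the 9 genes, and below them for 0. Over all 15117 tested genes the shares were 22.1% above and 22.6% below. The 9 had a median of 1.19 on the log2 scale, against 0.00630 for all tested genes. The exceptions were Maoa and Slc18a2. Over all tested genes 3 passed an adjusted p of 0.05 (edgeR quasi-likelihood test), or 0.0198%, and Th was listed with Slc6a5 and Prl. None passed with a stricter filter on low counts or without sex in the model (in the model as fitted 1766 passed an unadjusted p of 0.05, and DESeq2 called 34). As the set was chosen with this contrast known, that listing is no test of Th, and nothing is read from these shares.

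The sizes depended on the WT libraries. Without the female WT the median of the 9 was 0.31 in place of 1.19. Th was then at 0.83, Slc6a3 at 0.97, Drd2 at 0.60, Dbh at 0.50, Slc6a2 at 0.31, Ddc at 0.29, Slc18a2 at 0.15, Maob at 0.09 and Maoa at -0.13. The count of genes with both HT above the remaining WT was still 7, beside 38.0% of all tested genes. Without the male WT the median was 2.09, with Th at 1.49, Dbh at 2.09, Drd2 at 1.98, Ddc at 2.18, Slc18a2 at 2.44, Slc6a2 at 2.86, Maob at 0.42 and Maoa at 0.03, while Slc6a3 has no finite fold because the remaining WT library had no count. Without the male HT the median was 0.89, with Slc6a3 at 1.69, Drd2 at 1.10, Th at 1.04, Slc6a2 and Dbh at 0.89, Ddc at 0.83, Slc18a2 at 0.67, Maob at 0.20 and Maoa at -0.11. Th moved least of the 7 genes with a value above 1.

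Within each sex the HT library was higher for 8 of the 9 genes, as for 29.1% of all tested genes, and the median log2 ratio was 0.48 in the males but 1.90 in the females. Such ratios are of single libraries and have no test. Between the males, Slc6a3 had the highest log2 ratio (1.20), followed by Th (0.91), Dbh (0.67), Drd2 (0.63), Slc6a2 (0.48), Ddc (0.40), Slc18a2 (0.32), Maob (0.13) and Maoa (-0.09). Between the females, Slc6a2 was at 2.61, Slc18a2 at 2.21, Ddc at 2.05, Drd2 at 1.90, Dbh at 1.87 and Th at 1.40. Maob was at 0.37 and Maoa at -0.02. The order of the genes thus differed between the sexes, with Th high in the males and below Dbh, Ddc and the transporters in the females.

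**Figure D2:**
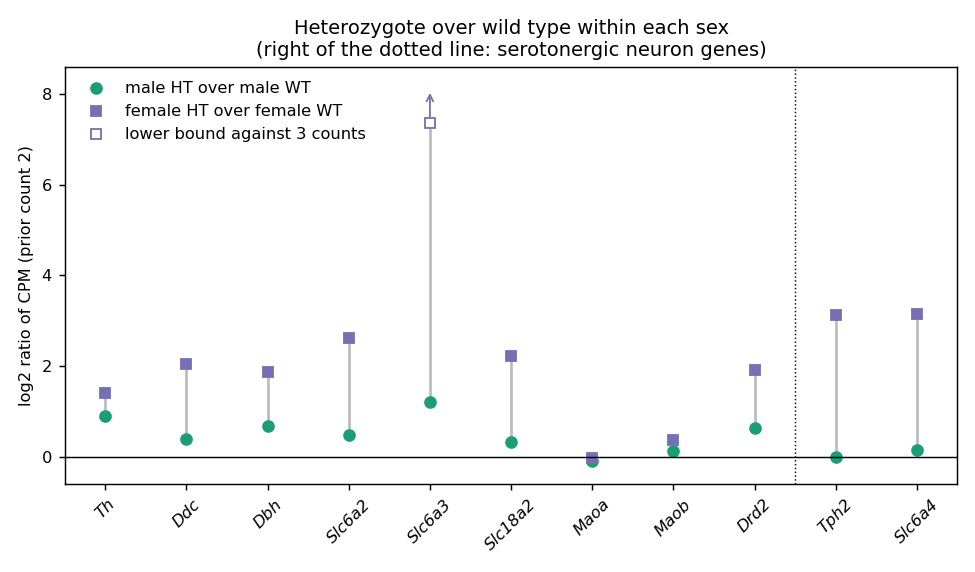
Log2 ratio of HT over WT (vertical axis, CPM with a prior count of 2) for the 9 genes and for Tph2 and Slc6a4 of serotonergic neurons. Circles compare the males and squares the females, 1 library each, and the open square of Slc6a3 is the lower bound of 163-fold, drawn on the log2 scale without the prior count, because the female WT had no count. The male ratio of Tph2 is at 0 while that of Th is 0.91, and both female ratios of the serotonergic genes exceed 3.

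Serotonergic neurons, the raphe cells, share Ddc, Slc18a2 and Maob with the set. Their most abundant marker, Tph2, the serotonin synthesis enzyme, had 52.1 CPM in the male HT, 52.2 in the male WT, 49.5 in the female HT and 5.63 in the female WT. Slc6a4, the serotonin transporter, had 34.2, 30.6, 35.4 and 3.93 CPM in the same order. In both genes 3 libraries were alike and the female WT was low. In the males the log2 ratio of HT over WT was -0.00254 for Tph2, 0.16 for Slc6a4 and -0.03 for Gata3. Of those named after their values were seen, it was 0.53 for Fev, the serotonergic transcription factor, and 0.45 for Htr1a, the serotonin autoreceptor, both close to Slc6a2 (0.48) and Ddc (0.40). The markers of these neurons thus differed among themselves. For 5 of the 8, Maob included, both HT libraries were above both WT libraries, beside 22.1% of all tested genes. Without the female WT the log2 fold change was -0.04 for Tph2, 0.18 for Slc6a4, 0.04 for Gata3 and 0.46 for both Fev and Htr1a.

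The make-up of each library can be followed through the ratio of counts within it. Th had 2.66 counts per Dbh count in the male HT (95% exact interval 2.38 to 2.98), 3.09 in the female HT (2.68 to 3.56), 2.25 in the male WT (1.92 to 2.65) and 4.32 in the female WT (3.44 to 5.48). The female WT thus kept more Th per Dbh than the male of either genotype. In that library 402 Th counts stood beside 0 Slc6a3 counts, whereas the other libraries had 1.67 to 2.17 Th counts per Slc6a3 count. Th per Tph2 was 1.11 in the male HT (1.02 to 1.21), 1.04 in the female HT (0.943 to 1.15), 0.588 in the male WT (0.526 to 0.657) and 3.47 in the female WT (2.81 to 4.30). Both HT libraries agree within sampling noise on that ratio, and the WT libraries lie on either side of them.

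Dbh and Slc6a2, the pair that marks noradrenergic neurons, kept a nearly fixed ratio in 3 libraries. It was 0.971 (0.850 to 1.11) in the male HT, 0.974 (0.820 to 1.16) in the female HT and 0.852 (0.709 to 1.02) in the male WT. The female WT was at 1.66 (1.18 to 2.36). Slc6a3 per Slc6a2, dopaminergic against noradrenergic, was 1.55 (1.37 to 1.75) in the male HT and 1.39 (1.19 to 1.63) in the female HT, above the 0.939 (0.786 to 1.12) of the male WT. In the female WT it was 0, with an upper limit of 0.0681. Maoa per Maob was 1.53 in the male HT, 1.52 in the female HT, 1.78 in the male WT and 2.002 in the female WT.

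Markers of the neurons that normally carry these genes were also measured. Chrna6, named after its values were seen, a nicotinic receptor subunit of midbrain dopaminergic neurons, had 10.4 CPM in the male HT, 9.09 in the female HT, 5.53 in the male WT and 0.776 in the female WT. Its log2 fold change was 1.98 ± 0.77 (SE), and 0.82 without the female WT. Of the 5 tested markers of these neurons outside the set, 4 were higher in HT and 1 lower. The others beside Chrna6 were Slc10a4 (0.91), Ret (0.25), Aldh1a1 (0.06) and Nr4a2 (-0.18). Pitx3, a transcription factor of the same cells, had at most 0.937 CPM, in the male HT. The summed level of the 10 midbrain dopaminergic markers was 647 and 579 CPM in HT and 541 and 429 CPM in WT (male, then female), most of it Aldh1a1, which was at 324 to 346 CPM throughout. The 10 noradrenergic markers summed to 228 and 200 CPM in HT and 180 and 109 CPM in WT, and 5 of these 10 belong to the set. Of the other 5, none was at 0 in any library, and they summed to 18.7 and 21.8 CPM in HT and 15.98 and 13.3 CPM in WT. The 7 serotonergic markers outside the set summed to 119 and 116 CPM in HT and 109 and 21.1 CPM in WT.

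Phox2a, a transcription factor of noradrenergic neurons and of other hindbrain nuclei, was at 0.631 to 0.690 CPM in all 4 libraries, at 11 to 13 counts each. Of the same list and of other lists, the next genes are named after their values were seen. Hcrtr1, an orexin receptor, was at 7.84 and 9.09 CPM in the male and female HT and at 6.08 and 2.67 CPM in the male and female WT. Calcr, the calcitonin receptor, was at 3.25 and 3.76 CPM in the male and female HT and at 3.95 and 0.679 CPM in the male and female WT, and Gal, which encodes galanin, was highest in the female WT at 5.34 CPM. Slc6a5 and Glra1, which encode a transporter and a receptor subunit of glycine, had both HT libraries above both WT libraries. Slc6a5 was at 27.2 and 17.4 CPM in the male and female HT and at 11.5 and 5.68 CPM in the male and female WT. Glra1 was at 17.6 and 13.1 CPM in the male and female HT and at 8.93 and 2.62 CPM in the male and female WT. Without the female WT their log2 fold changes were 0.96 and 0.79. Hoxa5 and Hoxb5, genes of the caudal hindbrain named after their values were seen, were highest in the female WT, at 15.9 and 23.6 CPM, against 2.32 to 5.64 and 3.95 to 9.34 CPM in the other libraries. That library therefore had the least Slc6a3 and Tph2 and the most Hoxa5 and Hoxb5. The female HT came next for Hoxa5 and Hoxb5, at 5.64 and 9.34 CPM, above both males. Purkinje cells are a second known site of Th. Of their 12 tested markers, 0 were higher in HT, with a median of -0.31 (log2). They summed to 5937 and 5492 CPM in HT against 6337 and 7409 CPM in WT. Of 7 markers other than Th of the zebrin-positive subset of Purkinje cells, 2 were higher and 5 lower, with a median of -0.11. These summed to 2808 and 2619 CPM in HT against 2576 and 3173 CPM in WT (male, then female). The 10 granule cell markers were all lower, with a median of -0.44. In such tissue, fewer cells of a type and less RNA per cell cannot be told apart, and the part of tissue from outside the cerebellum in the values of the set was not tested.

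The levels of the genes can be ordered only per length of transcript. By the mean over the 4 libraries, Th had 20.4 ± 9.14 CPM per kilobase (SD, n = 4), Ddc 19.0 ± 9.36, Maob 15.8 ± 2.07 and Maoa 15.4 ± 0.893. Slc18a2 followed with 6.64 ± 3.52, Dbh with 5.53 ± 2.83, Slc6a3 with 5.30 ± 4.23, Drd2 with 3.16 ± 1.54 and Slc6a2 with 2.35 ± 1.35. Of the 8 neighbouring pairs in this order only Maoa and Slc18a2 had ranges that did not overlap. Drd2 was above Slc6a2 within each of the 4 libraries, although the ranges of the pair overlapped. All other neighbours differed by less than their spread and changed places in at least 1 library.

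**Figure D3:**
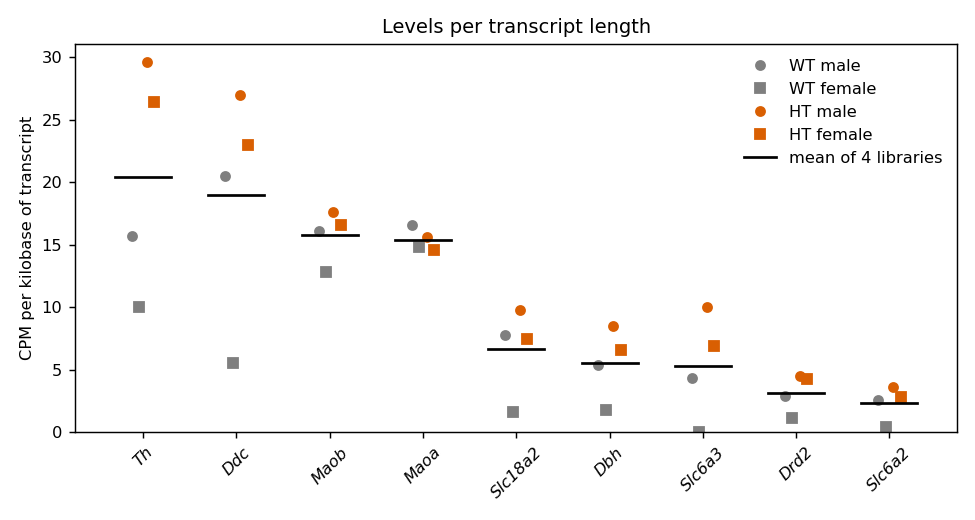
Level per kilobase of the longest annotated transcript (vertical axis, CPM per kilobase) for each gene, ordered by the mean of the 4 libraries (black line). Th and Ddc spread from 10.0 to 29.6 and from 5.55 to 27.0, while both monoamine oxidases stay between 12.8 and 17.6.

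The sex contrast was not used to choose the genes and was tested. It shares the female WT library with the genotype contrast, and 8 of the 9 were lowest there, beside 32.0% of all tested genes. A lower value in females is therefore not independent of the choice of genes. All 9 had a lower fitted level in females, by a median of -0.94 on the log2 scale (-0.01 over all tested genes), but 0 of the 9 passed (edgeR quasi-likelihood test, adjusted p = 0.994 for each). Over all genes 9 of 15117 passed, or 0.0595%. At an unadjusted p under 0.05 there were 2 of the 9, Dbh (-0.94 ± 0.29, SE) and Th (-0.40 ± 0.15, SE), beside 578 of all 15117 genes. DESeq2 and limma-voom each called 0 of the 9. The X-linked Maoa and Maob had female minus male values of -0.13 ± 0.11 and -0.21 ± 0.13 (SE). Without the female HT, where the female WT alone stands for its sex, 7 of the 9 passed, beside 611 of all 15117 genes (4.04%). Without the female WT, Th turned to 0.22 and Drd2 to 0.21. With 1 library left out, the others stayed below 0. Their values nearest to 0 were -0.02 for Maob, -0.04 for Ddc, -0.07 for Slc6a3 and -0.09 for Dbh and Maoa. For Slc6a2 and Slc18a2 they were -0.17 and -0.24.

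The rest of the pathway was described from lists of 56 genes outside the set, of which 47 were tested. These lists too were chosen with earlier results of these data known, so nothing is read from the shares below. None passed over all genes with edgeR, and 0 with DESeq2 or limma-voom. At an unadjusted p under 0.05 (edgeR quasi-likelihood test) there were 10, beside 1766 of all 15117 tested genes. Of the 47, 36 were higher and 11 lower in HT, and their median was 0.20 (log2). Both HT libraries were above both WT libraries for 20 and below for 5, beside 22.1% above and 22.6% below over all tested genes. Without the male WT, where the female WT alone set the WT level, 14 of the 47 passed (11 higher and 3 lower), beside 17.8% of all tested genes, and 32 lay above, beside 39.8%. Leaving out the female WT gave a median of 0.12, with 28 higher and 19 lower.

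The enzymes that make and recycle tetrahydrobiopterin, the cofactor of Th, were all tested, with 6 of 7 higher and a median of 0.16. Gch1, the first enzyme of its synthesis, was at 5.87 and 3.82 CPM in the male and female HT and 5.04 and 3.40 CPM in the male and female WT, a log2 fold change of 0.20 ± 0.27 (SE). Pcbd1, a recycling enzyme, had the largest value of the group, 0.59 ± 0.16 (SE). Qdpr (0.16), Spr (0.08), Gchfr (0.43), Pcbd2 (0.04) and Pts (-0.06) completed it. Gch1 thus did not share the spread of Th, since its libraries spanned 3.40 to 5.87 CPM with overlapping genotypes.

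Of the other synthesis and vesicle genes, Pnmt, which turns noradrenaline into adrenaline, had at most 0.146 CPM and was not tested. The vesicle proteins Chga and Chgb had log2 fold changes of 0.25 ± 0.10 and -0.16 ± 0.10 (SE), and Cyb561, the electron carrier that supplies ascorbate to Dbh, had 0.46 ± 0.12 (SE). Cyb561 was at 61.7 and 52.2 CPM in the male and female HT and at 46.6 and 36.5 CPM in the male and female WT. Slc18a1, the vesicle transporter of endocrine cells, was at 0.534 to 1.003 CPM. Tph1, the serotonin synthesis enzyme of peripheral tissue and pineal gland, had 1 count in each HT library against 10 in the male WT and 20 in the female WT.

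Most of the other breakdown enzymes were nearly level, and 7 of the 9 tested were higher. Aldh2 (0.19), Aldh1a1 (0.06), Aldh3a2 (-0.01) and Akr1a1 (0.11), which act on the aldehydes made by monoamine oxidase, lay within 0.2 of 0. Aldh1b1 was at 0.82 ± 0.27 (SE), Comtd1 at 0.27, Rnls at 0.20 and Sult1a1 at -0.09. Akr1b3 is listed at 0 in every library.

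Receptors and low-affinity carriers split by level. Of the dopamine receptors, Drd5 was at 3.75 and 3.76 CPM in the male and female HT and 2.37 and 1.12 CPM in the male and female WT (1.17 ± 0.37, SE), and its log2 fold change was 0.66 without the female WT. Drd1, listed under its older symbol, was at 0.340 to 1.40 CPM (0.42 ± 0.59, SE), and Drd3 and Drd4 were not tested. Of the 9 adrenergic receptors, 6 were higher and 3 lower, with a median of 0.30. The most abundant, Adra2a, an inhibitory receptor that is also the autoreceptor of noradrenergic neurons, had 26.2 and 26.0 CPM in the male and female HT and 21.4 and 18.5 CPM in the male and female WT (0.40 ± 0.15, SE). Among the others, Adra2b had 0.79, Adra1b 0.36, Adra2c 0.34 and Adra1a -0.03. Slc29a4, a low-affinity monoamine carrier, was level at 61.5 to 69.3 CPM (0.03 ± 0.11, SE), and Slc22a3, another, had 0.146 CPM in the female WT and 1.70 to 2.12 CPM in the other libraries (1.42 ± 0.70, SE). The value of Slc22a3 was 0.22 without the female WT. Slc22a2 was not tested.

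Among 14 transcription factors of catecholamine neurons, 12 were tested, 9 higher and 3 lower, with a median of 0.16. The midbrain factors Foxa1 and Foxa2 had 1 and 0 counts in the female WT and 0.394 to 0.815 CPM elsewhere. Their log2 fold changes were 1.25 ± 0.89 and 0.91 ± 1.15 (SE), and 0.23 and -0.33 without the female WT. En1, of midbrain and anterior hindbrain, was at 10.9 and 10.5 CPM in HT and at 9.97 and 4.996 CPM in the male and female WT (0.59 ± 0.26, SE), and its log2 fold change was 0.11 without the female WT. En2, which cerebellar granule cells also make, was lower at -0.28 ± 0.10 (SE), and Tfap2b, a factor of cerebellar interneuron precursors too, was at -0.34 ± 0.13 (SE). Nr4a2 had -0.18, Lmx1a 0.36, Lmx1b 0.67, Insm1 0.28 and Phox2a 0.04. Pitx3 and Hand2 were not tested.

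**Figure D4:**
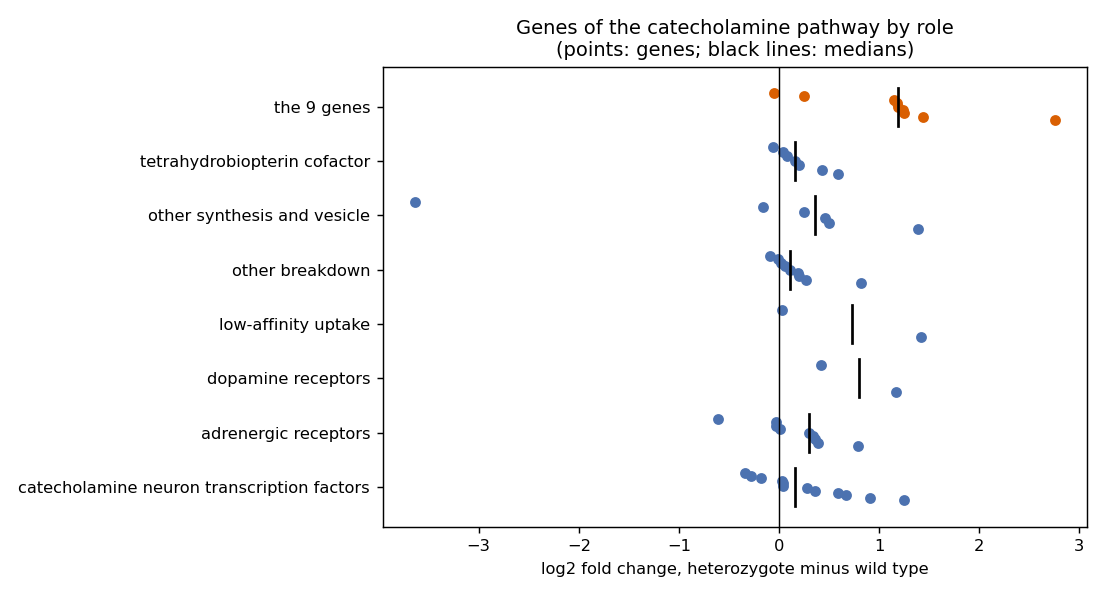
Log2 fold change of HT minus WT (horizontal axis) for the 9 genes (orange) and for the tested genes of the pathway lists (blue), by role. Black lines mark medians, 1.19 for the 9 genes and 0.11 to 0.80 for the lists, and the point at -3.64 is Tph1, with 1 count in each HT library.

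The genes most like Th were sought as those with the smallest Euclidean distance in centred log2 CPM over the 4 libraries, among 14232 tested genes with a mean of at least 1 CPM. The 6 nearest outside the set were Zdhhc22 (0.0427), Snrpn (0.150), Trpc5 (0.169), Stox1 (0.184), Ntsr1 (0.186) and Tac1 (0.203). Zdhhc22 had 8.03 and 7.34 CPM in the male and female HT and 4.32 and 2.62 CPM in the male and female WT. Ntsr1 is the neurotensin receptor known from midbrain dopaminergic neurons, and Tac1 encodes substance P. For Dbh the nearest were Htr1d (0.132), Sv2c (0.148), Irx4 (0.196), Evx1 (0.202), Lhx2 (0.204) and Npy5r (0.211). Of the set itself, Ddc (0.243) and Drd2 (0.270) were nearest to Dbh, and Th was farther from it (0.676). Without the female WT, 1 of the 6 nearest to Th and 0 of the 6 nearest to Dbh were again among the 6 nearest. With 4 libraries many profiles are alike: 182 genes had a Pearson correlation above 0.99 with Th and 236 with Dbh.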

How the data were processed

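The authors deposited raw counts for each gene symbol in a column per library. The submitters' processing notes list STAR, featureCounts, FastQC, edgeR and mm9, and strand settings are not given in the sources used here. Per the labels, stranded poly(A) libraries were read single-end over 100 bases in 1 lane. An antisense gene of the annotation overlaps Slc18a2 exons. It is not in the count table, and whether its reads entered the Slc18a2 count is unknown. Another overlaps the Ddc gene outside its exons and had a mean of 0.0516 CPM.

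The 9 genes and all lists were chosen with earlier results of these data known. Genes were filtered with filterByExpr by genotype (15117 kept) and scaled by TMM. The model held genotype and sex and left 1 residual degree of freedom. It was fitted by robust quasi-likelihood (edgeR 4.0.16, R 4.3.3), with Benjamini-Hochberg adjustment across the tested genes. SE is the fold change divided by the square root of F. Single-library ratios used a prior count of 2. Alternatives included limma-voom (limma 3.58.1), DESeq2 1.42.0, a likelihood ratio test, other scalings, filters, terms and prior counts, and leaving out each library. Replicate numbers only name libraries and pair none.

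Lengths are those of the longest GENCODE M21 transcript. Some genes of the lists enter the counts and medians but are not reported here by name. Named genes were the 9, the other genes of the pathway lists, the most abundant or absent markers, the tested genes beside the 9 on their chromosomes, Arid1b, genes past the threshold, and the 6 genes nearest to Th and to Dbh.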

Additional observations from a re-analysis of the deposited data

Results flagged for a closer look

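For the genes named here, the HT over WT log2 ratio had opposite signs in the males and the females, 1 library each, and that difference was not tested. With single libraries many genes of small ratio do so. The male minus female difference of the log2 ratios was largest for Foxa2 (-3.50, from -0.63 in males and 2.87 in females), Tph2 (-3.12) and Foxa1 (-2.68), all at their lowest in the female WT. It was -1.79 for Drd1, listed as Drd1a, and -1.71 for Insm1. Of the adrenergic receptors, it was 0.89 for Adra1d, -0.71 for Adrb3, -0.70 for Adra1a and -0.19 for Adrb1. It was -0.74 for Nr4a2 and -0.17 for Phox2a. Among enzymes it was 0.43 for Pcbd2, 0.25 for Sult1a1, 0.24 for Akr1a1, 0.15 for Pts and -0.0790 for Aldh3a2. None of the 9 genes of the set was in this group.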

How the results depend on the processing

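The log2 fold changes between the genotypes kept their direction for the 9 genes under every alternative except Maoa, which was at 0.03 without the male WT. The fold of Slc6a3 depended on how the count of 0 was treated and was 6.37 with DESeq2. The number of genes called between the genotypes, 3, was 34 with DESeq2, 166 with the likelihood ratio test, 7 with DESeq2's size factors, 13 with library totals, 553 with no filter, 0 with the stricter filter, 0 without the sex term and 0 to 2695 with a library left out. The number called between the sexes, 9, was 16 with the likelihood ratio test, 48 with no filter, 5 without the genotype term and 4 to 611 with a library left out. Of the pathway genes, 1 was called with the likelihood ratio test, 3 of 54 with no filter and 0 to 14 with a library left out, and those with HT above WT, 20 with all libraries, numbered 24 to 32. Of the set, 1 gene (Dbh) was called between the sexes with no filter and 0 to 7 with a library left out. The female minus male value of Th lay between -1.17 and 0.22 when 1 library was dropped, turning to 0.21 without the male HT and 0.22 without the female WT, and that of Drd2 between -1.72 and 0.21, the latter without the female WT. The cause of these changes was not tested. With a library left out, its contrast is the only term and a lone library is assumed to vary like the other group. Counts of non-overlapping genes, nearest genes and the pathway median with a library left out were added after seeing the data. A likeness by Pearson correlation shared 0 of the 6 genes nearest to Th, and 0 of those nearest to Dbh. With a library left out, 1 to 4 of the 6 nearest to Th and 0 to 2 of those nearest to Dbh were shared, and the pathway median lay between 0.12 and 0.27.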

Other observations

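The tested genes next to the 9 on their chromosomes were described as well. The 9 were chosen with their genotype values known, so a difference in size between them and their neighbours shows nothing by itself. Of 16 such neighbours, 10 had higher and 6 lower values in HT. Their log2 values ran from -0.38 to 0.61 around a median of 0.07. The groups overlapped for 8 of them, as for 55.3% of all tested genes. Grb10, an imprinted neighbour of Ddc, was at 83.0 and 89.8 CPM in the male and female HT and at 85.0 and 52.7 CPM in the male and female WT (0.37 ± 0.20, SE). Fam163b, next to Dbh, was at 55.5 and 57.9 CPM in HT and 48.8 and 38.6 CPM in the male and female WT (0.39 ± 0.13, SE). Tmprss5, next to Drd2, had the highest value (0.61 ± 0.22, SE), with 10.99 and 9.53 CPM in HT and 7.05 and 6.35 CPM in WT. Lpcat1 and Clptm1l, on either side of Slc6a3, were at 0.16 and -0.06, and each was within 16.8 to 19.8 and 86.9 to 93.0 CPM over the 4 libraries, where Slc6a3 ran from 0 to 34.6 CPM. Pdzd8 and Eno4 beside Slc18a2 were at 0.05 and 0.09.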
